A study of Mus musculus with 18 samples.

Results

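Wild-type mouse tissue labelled thalamus and given Coll IV and remodelin (intervene replicates 4, 5 and 6) was compared with wild-type thalamus given saline (control replicates 4, 5 and 6). These 6 libraries of polyA RNA come from a series of 18, which holds 3 groups of 6: intervene, model (Coll IV alone) and control. The series concerns thalamic haemorrhage and asks whether the NAT10 inhibitor remodelin alters genes tied to inflammation. Its labels do not spell out Coll IV, and they give no dose, age, sex or time after treatment. Intervene and control libraries differ in both Coll IV and remodelin and no library received remodelin alone, so this contrast does not separate the agents. The labels do not say whether replicates came from separate animals, so p-values measure the spread between these libraries, which may be technical. The 6 libraries were chosen by replicate number and selected on the measured levels of region genes: genes of single brain regions differed between the libraries numbered 4 to 6 and those numbered 1 to 3, and no label states such a split. The genes described are all those that passed a filter on low counts in the 6 libraries, 17734 of the 50559 in the deposited table.

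A bleed in the brain releases haemoglobin, whose haem is broken down by haem oxygenase and whose iron is stored in ferritin. Damaged tissue and blood products are sensed by Toll-like receptors on microglia and infiltrating leukocytes, which signal through NF-kB and release cytokines and chemokines, while astrocytes raise Gfap and secreted acute-phase proteins. NAT10 is an acetyltransferase that modifies cytidines in RNA. The thalamus lies beside the habenula, the hypothalamus and the ventricle, and below the hippocampus. The ventricle is lined by ciliated ependymal cells and holds the choroid plexus, which secretes cerebrospinal fluid. Each of these neighbours expresses genes of its own.

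Library totals were 29083657 to 32669024 counts for the 3 intervene libraries and 30538564 to 56878946 for the 3 control libraries. Mitochondrially encoded genes took 12.3 to 17.7% of counts in the intervene libraries and 7.40 to 11.2% in the control libraries, and globin genes took 0.0240 to 0.0418% against 0.0119 to 0.0158%. Levels are given as CPM, a gene's share of the counts in its library, after TMM scaling over all 18 libraries. Fold changes are on the log2 scale with their standard errors (SE), intervene over control, from edgeR's quasi-likelihood test on the 6 libraries. A gene is called higher or lower where that test's Benjamini-Hochberg adjusted p over all genes tested was under 0.05.

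The label of the tissue was checked against genes that mark thalamic neurons. Tcf7l2, a Wnt pathway transcription factor of thalamic neurons, had 48.6, 32.8 and 36.7 CPM in intervene replicates 4, 5 and 6, against 4.68, 3.82 and 5.05 CPM in control replicates 4, 5 and 6. The saline libraries of the other set, control replicates 1, 2 and 3, had 98.6, 102 and 101 CPM. Shox2, a homeobox gene of thalamic neurons, had 19.4, 11.6 and 15.8 CPM in the intervene libraries, against 0.0641, 0 and 0.133 CPM in the control libraries. Control replicates 1, 2 and 3 had 26.0, 24.0 and 27.0 CPM of Shox2. In the 3 control libraries compared here Shox2 was therefore at or near 0 and Tcf7l2 was low, while every other saline library expressed both. Values of region genes below, and the numbers of them called, are a description that is read as no test, since such genes set the libraries apart. In bulk tissue, fewer cells of a type and less RNA per cell cannot be told apart.

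Of the 17734 genes tested, 2586 were called higher in the intervene libraries (14.6% of genes tested) and 1953 were called lower (11.0%), 25.6% in either direction. Numbers of called members in each list below are to be read beside these shares. At least a 2-fold change was reached by 1133 of the higher and 420 of the lower genes, and at least a 4-fold change by 477 and 52. The higher genes made up 57.0% of calls, against 44.8% with scaling to library totals, where 1937 genes were higher and 2382 lower, and 44.3% with limma on log2(FPKM + 1), where 1710 were higher and 2146 lower. Without control replicate 4 the counts were 1562 and 1065, and without control replicate 5 they were 1473 and 982. With scores of the thalamic and choroid plexus lists as covariates over all 18 libraries, edgeR called 0 genes in either direction and 837 had an unadjusted p under 0.05, with a median SE of 0.793 against 0.163 in the 6 libraries alone. At the threshold, the predicted gene Gm52603 lay just inside with a log2 fold change of -0.70 ± 0.23 (SE), and the lactase gene Lct lay just outside with 2.55 ± 0.75. Nat10 itself had 17.5, 16.8 and 16.1 CPM in the intervene libraries, against 18.6, 19.4 and 15.7 CPM in the control libraries, and the groups overlapped (log2 fold change -0.08 ± 0.12, edgeR adjusted p = 0.693).

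To tell injury genes from region genes, each gene was also set against the saline libraries that the test did not use. All 3 intervene libraries lay above all 6 control libraries in 748 of the genes tested (4.22%), and below all 6 in 548 (3.09%). Of the 2586 higher genes, 471 (18.2%) lay above every saline library, and 2115 did not. In 12 lists of injury and inflammation genes, 84 of 186 members tested were called higher, and 51 of these (60.7%) lay above every saline library. In 9 lists of region genes, 63 of 112 members were called higher, and 1 of these (1.59%) lay above every saline library. The injury lists had a median log2 fold change of 0.54 and the region lists one of 1.66, against 0.01 over all genes tested. The share of region members above every saline library is fixed in large part by how the libraries were selected, since control replicates 1 to 3 were set apart by high region genes, and nothing is read from it or from its distance to the share in the injury lists. The filter asked for about 0.322 CPM in at least 3 libraries, and 20 of the 84 higher injury members and 30 of the 63 higher region members reached it only through the intervene libraries, so they could be tested only because they were high there. Of the other 163 injury members 64 were called higher, 33 of them above every saline library (median log2 fold change 0.47).

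**Figure D1:**
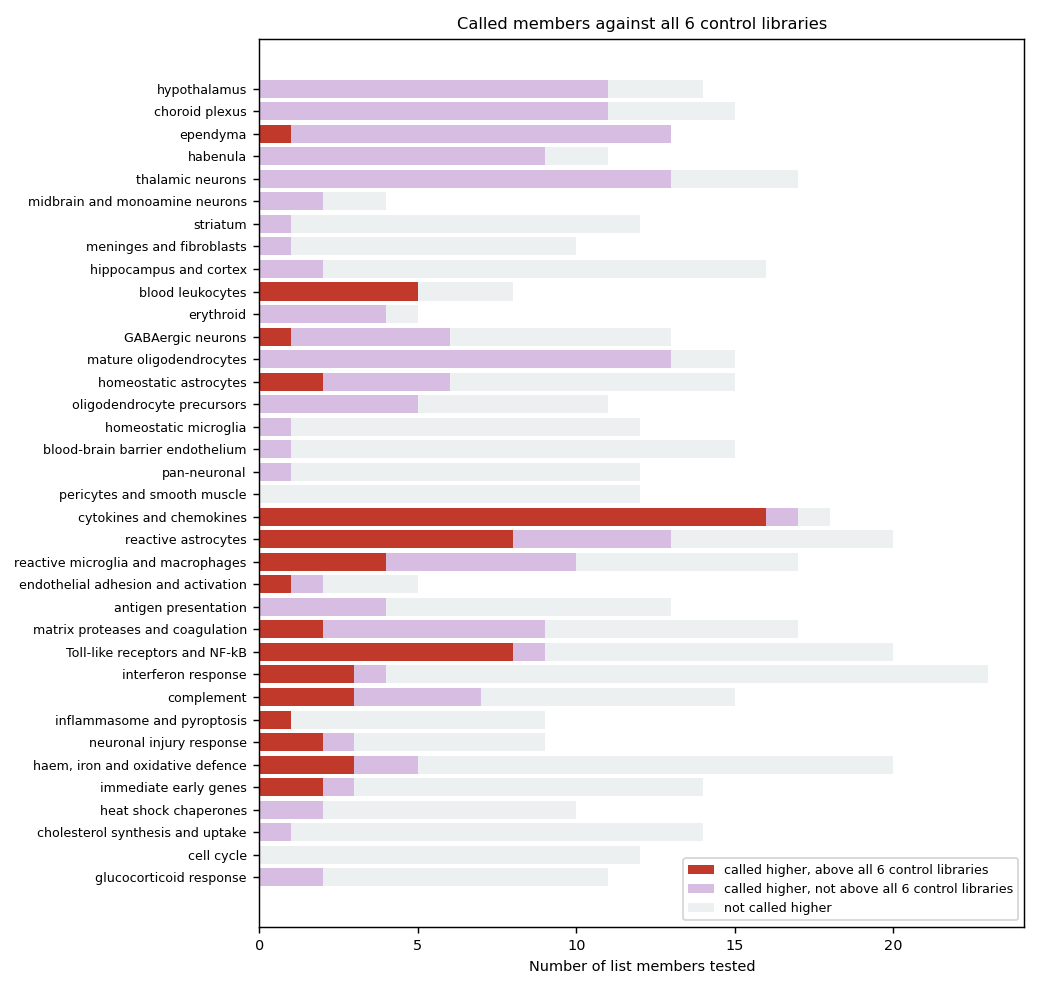
Members of each gene list that were tested (bar length), split into those called higher with all 3 intervene libraries above all 6 control libraries (dark), those called higher but not above all 6 (light violet) and the rest (grey). In the cytokine and chemokine list 16 of 17 higher members lay above all 6 control libraries, and in the thalamic, habenular, hypothalamic and choroid plexus lists none did. The libraries were selected on region genes, so nothing is read from that contrast. Of the 17 cytokine members, 11 passed the filter only through the intervene libraries. Without them, 5 of 6 higher members lay above all 6 control libraries.

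Among the 477 genes at least 4-fold higher, 59 (12.4%) lay above every saline library. Of these, 25 belonged to injury lists, 14 of them cytokines or chemokines, 5 to blood leukocyte markers, 1 to a region list and 28 to no list. Of the other genes of that size, 49 were region genes, 4 were injury genes and the rest were in no list. The place of region genes in this split is fixed in large part by how the libraries were selected, and nothing is read from it. Moreover, 11 of the 14 cytokines or chemokines and 4 of the 5 leukocyte markers passed the filter only through the intervene libraries. So did other injury genes, such as Ptx3, C3, Lgals3 and Atf3, and genes in no list were not counted for this.

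Of 18 cytokine and chemokine genes tested (of 20 listed), 17 were called higher and none lower, with a median log2 fold change of 3.67, and 16 of the 17 lay above every saline library. As many as 11 of the 17 passed the filter only through the intervene libraries. They were Ccl2, Ccl3, Ccl4, Ccl5, Ccl7, Cxcl1, Cxcl2, Cxcl10, Il1a, Il1rn and Tnf, which could be tested only because they were high there. Of the other 7, 6 were called higher, 5 of them above every saline library, with a median log2 fold change of 1.74. Ccl12, a chemokine that draws monocytes, had 16.4, 12.2 and 13.9 CPM in the intervene libraries, against 0.449, 0.730 and 0.465 CPM in the control libraries. The other saline libraries, control replicates 1, 2 and 3, had 0.311, 0.782 and 1.29 CPM. The 3 intervene libraries stood far above all 6 saline libraries, with a log2 fold change of 4.65 ± 0.24 (SE, n = 3 each, edgeR adjusted p = 1.58e-05). Ccl2, the main monocyte chemoattractant, had 8.14, 5.84 and 5.44 CPM, against 0, 0.174 and 0 CPM in the control libraries and 0.0491, 0.0602 and 0.144 CPM in control replicates 1, 2 and 3. It rose by 6.30 ± 0.60 on the log2 scale (edgeR adjusted p = 0.000232). Ccl7, from the same chemokine cluster, rose by 5.81 ± 0.64, and the macrophage inflammatory chemokines Ccl3 and Ccl4 by 3.58 ± 0.47 and 3.76 ± 0.54, each with an edgeR adjusted p of 0.00133 or less.

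The neutrophil chemoattractant Cxcl1 had 8.31, 6.51 and 2.26 CPM in the intervene libraries, against 0, 0.139 and 0.0664 CPM in the control libraries. Intervene replicate 6 was the lowest of its group, and the groups did not overlap (log2 fold change 6.09 ± 0.71, edgeR adjusted p = 0.000627). Cxcl2, which acts through the same receptor, had 1.42, 2.52 and 0.547 CPM, and no count in any of the 3 control libraries. Set against the 3 counts that a group at 0 allows, it was at least 59.4-fold higher in the intervene libraries. Cxcl10, an interferon-induced chemokine for T cells, had 22.8, 7.22 and 14.98 CPM in the intervene libraries, against 0.257, 0.313 and 0 CPM in the control libraries. Control replicates 1, 2 and 3 had 0.393, 1.14 and 1.22 CPM of Cxcl10, still below the lowest intervene library.

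Cxcl1, Cxcl2 and Cxcl10 are shown with the 250 bases before their start sites, since they are the cytokine and chemokine genes above every saline library whose sequence at hand held a match to a motif searched, so they were chosen for the match. The sequences are from RefSeq, build GRCm38.p6, and were matched by symbol. Capitals mark matches to an NF-kB type motif (GGGANNTTCC) and an interferon-stimulated response element type motif (GAAANNGAAA), both strands searched. In Cxcl1 and Cxcl2 the capitals hold 2 overlapping matches to the NF-kB type motif, which start 71 and 70 bases before the start site in Cxcl1 and 97 and 96 bases before it in Cxcl2. In Cxcl10 the interferon type match lies 213 to 204 bases before the start site and the NF-kB type match 159 to 150 bases before it. Gbp2, an interferon-induced GTPase described with the interferon genes, has an interferon type match on the other strand, 59 to 50 bases before its start site.
Cxcl1, chr5:90890995-90891244, plus strand: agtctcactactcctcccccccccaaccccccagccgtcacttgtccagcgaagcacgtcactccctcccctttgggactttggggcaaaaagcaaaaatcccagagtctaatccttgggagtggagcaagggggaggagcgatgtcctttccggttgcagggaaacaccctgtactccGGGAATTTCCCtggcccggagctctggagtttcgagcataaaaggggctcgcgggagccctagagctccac
Cxcl2, chr5:90903649-90903898, plus strand: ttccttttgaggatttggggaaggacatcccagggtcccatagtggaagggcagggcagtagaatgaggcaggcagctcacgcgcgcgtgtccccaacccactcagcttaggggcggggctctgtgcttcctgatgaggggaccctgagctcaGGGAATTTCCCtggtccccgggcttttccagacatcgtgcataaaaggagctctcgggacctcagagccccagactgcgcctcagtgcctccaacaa
Cxcl10, chr5:92348890-92349139, minus strand: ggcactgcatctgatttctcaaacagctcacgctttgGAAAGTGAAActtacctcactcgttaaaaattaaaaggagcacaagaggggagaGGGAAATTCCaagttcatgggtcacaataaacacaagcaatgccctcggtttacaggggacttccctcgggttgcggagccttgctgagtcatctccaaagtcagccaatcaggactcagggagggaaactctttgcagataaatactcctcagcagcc
Gbp2, chr3:142620413-142620662, plus strand: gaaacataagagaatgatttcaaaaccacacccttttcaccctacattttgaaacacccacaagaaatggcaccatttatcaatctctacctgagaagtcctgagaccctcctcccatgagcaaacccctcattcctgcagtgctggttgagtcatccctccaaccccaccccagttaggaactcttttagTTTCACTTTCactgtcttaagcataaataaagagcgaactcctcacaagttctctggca

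Of the 18 cytokine and chemokine genes tested, 13 had a promoter sequence at hand. The NF-kB type motif was found in 4 of these (Csf1, Cxcl1, Cxcl10 and Cxcl2) and in 1.21% of all 32851 promoters of the same length, and the interferon type motif in 1 (Cxcl10) and in 2.98% of all promoters. These matches describe letters in the window and say nothing of binding.

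The interleukin 1 family and Tnf moved with the chemokines. Il1b, the inflammasome-processed cytokine, had 6.52, 1.21 and 4.48 CPM in the intervene libraries, against 0.449, 0.452 and 0.598 CPM in the control libraries. Intervene replicate 5 was the lowest of its group but lay above all 6 saline libraries (log2 fold change 3.05 ± 0.56, edgeR adjusted p = 0.00456). Il1a rose by 3.40 ± 0.55 and Tnf by 4.06 ± 0.65 on the log2 scale (edgeR adjusted p = 0.00206 and 0.00162). Both passed the filter only through the intervene libraries. Il1rn, which encodes the antagonist of the interleukin 1 receptor, had 1.89, 1.41 and 3.42 CPM, against 0, 0.0348 and 0 CPM in the control libraries. With 2 counts in the 3 control libraries, its ratio was 133 with a 95% interval of 36.3 to 1104, which covers counting error only. Csf1, a growth factor for microglia, was the called member that did not clear every saline library. It had 30.2, 23.8 and 21.8 CPM in the intervene libraries and 14.1, 13.7 and 14.2 CPM in the control libraries, and control replicate 2 had 22.8 CPM (log2 fold change 0.87 ± 0.14, edgeR adjusted p = 0.00168).

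**Figure D2:**
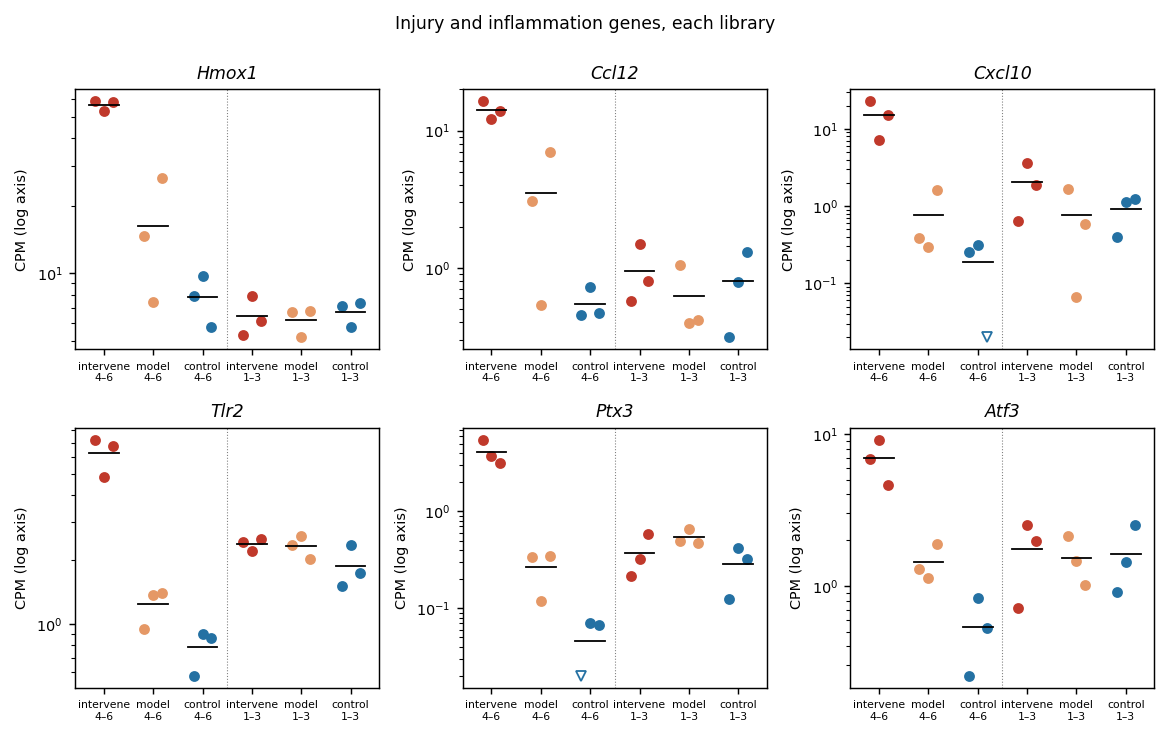
CPM on a log axis of 6 injury genes in each library (dots) with group means (lines), for intervene, model and control replicates 4 to 6 on the left of the dotted line and replicates 1 to 3 on its right. Open triangles are libraries with no count. In each panel the 3 intervene 4 to 6 libraries sit above all 6 control libraries, as with Hmox1 at 53.0 to 58.6 CPM against 5.78 to 9.77 CPM.

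Receptors and transcription factors upstream of these cytokines rose in part. Of 20 genes of Toll-like receptors and NF-kB, 9 were called higher and none lower (median log2 fold change 0.54), and 8 of the 9 lay above every saline library. Of the 9, 1, Tlr1, passed the filter only through the intervene libraries. Tlr2, a receptor for lipoproteins and damage signals, had 7.23, 4.83 and 6.77 CPM in the intervene libraries, against 0.577, 0.904 and 0.864 CPM in the control libraries and 1.51, 2.35 and 1.73 CPM in control replicates 1, 2 and 3. The intervene libraries stood above all 6 saline libraries (log2 fold change 3.003 ± 0.268, edgeR adjusted p = 0.000115). Its co-receptor Cd14 rose by 1.55 ± 0.23 (edgeR adjusted p = 0.00105). Tlr4, the receptor for lipopolysaccharide, had 1.38 to 1.61 CPM in the intervene libraries and 1.67 to 1.91 CPM in the control libraries and was not called (log2 fold change -0.29 ± 0.26, edgeR adjusted p = 0.450). Bcl3, an NF-kB co-regulator, rose by 3.03 ± 0.32, while the subunits Rela, Relb and Nfkb2 rose by 0.77 ± 0.14, 0.76 ± 0.17 and 1.03 ± 0.20, with edgeR adjusted p-values of 0.00767 or less. Nfkbia, the inhibitor that NF-kB itself induces, had 32.8, 40.5 and 28.3 CPM, against 44.4, 43.2 and 21.4 CPM in the control libraries, and was not called (edgeR adjusted p = 0.848).

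Genes that handle haem and iron did not move as a block. Of 20 members, 5 were called higher and 2 lower, beside 14.6% and 11.0% of all genes tested. The median log2 fold change was 0.17, or 0.097 without intervene replicate 6, 0.23 without intervene replicate 4 and 0.082 with scaling to library totals. Hmox1, which encodes the inducible haem oxygenase, had 58.6, 53.0 and 58.3 CPM in the intervene libraries, against 7.92, 9.77 and 5.78 CPM in the control libraries and 7.11, 5.78 and 7.34 CPM in control replicates 1, 2 and 3. The 3 intervene libraries lay close together and above all 6 saline libraries (log2 fold change 2.86 ± 0.17, edgeR adjusted p = 1.92e-05). Fth1, the ferritin heavy chain, had 5806, 7594 and 8993 CPM, against 4143, 3680 and 4482 CPM in the control libraries, but control replicates 1, 2 and 3 reached 6866, 6647 and 7435 CPM (log2 fold change 0.88 ± 0.17, edgeR adjusted p = 0.00424). Tfrc, the transferrin receptor that imports iron, fell by 0.60 on the log2 scale (SE 0.12, edgeR adjusted p = 0.00474), with 49.4 to 55.6 CPM in the intervene libraries and 69.0 to 92.7 CPM in the control libraries. Its level in control replicates 1 to 3 was 48.8 to 69.4 CPM.

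Reactive astrocyte genes rose in 13 of 20 members and fell in none (median log2 fold change 1.08), and 8 of the 13 lay above every saline library. Of the 13, 2, Ptx3 among them, passed the filter only through the intervene libraries. Of the other 18 members, 11 were called higher, 7 of them above every saline library, with a median log2 fold change of 1.02. Ptx3, a secreted pattern-recognition pentraxin, had 5.54, 3.76 and 3.15 CPM in the intervene libraries, against 0, 0.0695 and 0.0664 CPM in the control libraries and 0.123, 0.421 and 0.324 CPM in control replicates 1, 2 and 3. The groups did not overlap (log2 fold change 6.30 ± 0.51, edgeR adjusted p = 7.98e-05). Cd109, a surface protein of reactive astrocytes, rose by 3.05 ± 0.36, Cd44, a hyaluronan receptor, by 1.73 ± 0.27, Lcn2, a siderophore-binding lipocalin, by 1.69 ± 0.22 and Osmr, the oncostatin M receptor, by 1.09 ± 0.24. All 4 lay above every saline library, with edgeR adjusted p-values of 0.00852 or less. Lcn2 had an edgeR adjusted p of 0.1002 where all 18 libraries shared the estimate of spread. Gfap, the intermediate filament of astrocytes, had 431, 647 and 547 CPM in the intervene libraries, against 124.5, 166 and 109.5 CPM in the control libraries (log2 fold change 2.04 ± 0.19, edgeR adjusted p = 0.000148). Levels in control replicates 1, 2 and 3 were 239, 379 and 492 CPM, so Gfap overlapped the other saline libraries. Serpina3n, a secreted protease inhibitor, rose by 1.97 ± 0.16 (edgeR adjusted p = 7.98e-05) and overlapped them as well, with 51.4 to 75.7 CPM in the intervene libraries, 13.9 to 17.1 CPM in control replicates 4 to 6 and 21.2 to 61.4 CPM in control replicates 1 to 3.

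Of 17 genes of reactive microglia and macrophages tested, 10 were called higher and none lower (median log2 fold change 0.92), and 4 of the 10 lay above every saline library. However, 4 of the 10, among them Lgals3, Clec7a and Msr1, passed the filter only through the intervene libraries. Of the other 13 members, 6 were called higher, 1 of them above every saline library, with a median log2 fold change of 0.52. Lgals3, a lectin of phagocytes, had 2.97, 6.04 and 4.99 CPM in the intervene libraries, against 0.257, 0.764 and 0.598 CPM in the control libraries and 1.92, 1.56 and 1.94 CPM in control replicates 1, 2 and 3. The intervene libraries stood above all 6 saline libraries (log2 fold change 3.07 ± 0.39, edgeR adjusted p = 0.000594). Clec7a, a receptor for fungal glucans, rose by 2.96 ± 0.43, and Msr1, the macrophage scavenger receptor, by 2.44 ± 0.36, with edgeR adjusted p-values of 0.00101 and 0.00113. Trem2, a lipid-sensing receptor of microglia, had 17.9, 13.4 and 17.3 CPM, against 14.8, 15.3 and 22.9 CPM in the control libraries, and the groups overlapped (edgeR adjusted p = 0.715). Among 12 homeostatic microglia markers 1 was called higher and 1 lower (median log2 fold change -0.07). Tmem119, a marker of resident microglia, was the lower one, with 15.3, 17.9 and 20.3 CPM, against 24.0, 29.0 and 25.5 CPM in the control libraries (log2 fold change -0.53 ± 0.13, edgeR adjusted p = 0.0150). That call was lost without control replicate 5 (edgeR adjusted p = 0.0816). P2ry12, the purinergic receptor of resting microglia, had a log2 fold change of -0.06 ± 0.15 (edgeR adjusted p = 0.804).

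Complement genes were called higher in 7 of 15 members and lower in none (median log2 fold change 0.49), with 3 of the 7 above every saline library. Where all 18 libraries shared the estimate of spread, 4 were called higher. C3 passed the filter only through the intervene libraries. Of the other 14 members, 6 were called higher, 2 of them above every saline library, with a median log2 fold change of 0.47. C3, the component on which the complement routes meet, had 3.92, 6.04 and 3.49 CPM in the intervene libraries, against 0.192, 0.452 and 0.465 CPM in the control libraries and 2.74, 2.71 and 3.09 CPM in control replicates 1, 2 and 3. It lay above all 6, by a small margin over the other set (log2 fold change 3.58 ± 0.37, edgeR adjusted p = 0.000203). C5ar1, a receptor for the fragment C5a, rose by 1.61 ± 0.27 and lay above every saline library (edgeR adjusted p = 0.00209). C4b had 28.6, 24.2 and 24.8 CPM, against 9.43, 11.2 and 10.4 CPM in the control libraries (log2 fold change 1.34 ± 0.13, edgeR adjusted p = 0.000142). Control replicates 1, 2 and 3 had more than the intervene libraries, 35.1, 48.9 and 37.6 CPM.

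Interferon genes moved little as a list. Of 23 members, 4 were called higher and none lower (median log2 fold change 0.50, or 0.27 without control replicate 6), with 3 of the 4 above every saline library. Over all genes tested 14.6% were called higher. Gbp2 had 15.9, 9.47 and 12.9 CPM in the intervene libraries, against 2.92, 2.69 and 2.72 CPM in the control libraries, and control replicates 1 to 3 reached 2.92 to 4.96 CPM (log2 fold change 2.22 ± 0.21, edgeR adjusted p = 0.000139). Irf9, a transcription factor of the interferon response, rose by 0.65 ± 0.15 (edgeR adjusted p = 0.0108). Antigen presentation genes were higher in 4 of 13 members and lower in none (median log2 fold change 0.60), with 0 of the 4 above every saline library. Cd74, the chaperone of class II molecules, had 8.17, 7.79 and 10.7 CPM, against 2.25, 2.78 and 4.58 CPM in the control libraries, a rise of 1.499 ± 0.262 (edgeR adjusted p = 0.00255), and control replicates 1, 2 and 3 had 6.20, 16.8 and 13.5 CPM. H2-Ab1, a class II chain, rose by 1.79 ± 0.29 (edgeR adjusted p = 0.00173) and likewise overlapped the other saline libraries, with 2.63 to 4.24 CPM in the intervene libraries and 2.05 to 7.52 CPM in control replicates 1 to 3.

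Neuronal injury genes were called higher in 3 of 9 members tested and lower in none. Their median log2 fold change was 0.19, and 0.32 to 0.36 without intervene replicate 6, control replicate 4 or control replicate 6. The member Atf3 passed the filter only through the intervene libraries. Of the other 8 members, 2 were called higher, 1 of them above every saline library, with a median log2 fold change of 0.17. Atf3, a transcription factor of injured neurons, had 6.89, 9.20 and 4.65 CPM in the intervene libraries, against 0.257, 0.834 and 0.532 CPM in the control libraries and 0.917, 1.44 and 2.52 CPM in control replicates 1, 2 and 3. The groups did not overlap with either set of saline libraries (log2 fold change 3.62 ± 0.39, edgeR adjusted p = 0.000321). Ecel1, a protease induced in injured neurons, had 52.8, 43.3 and 39.4 CPM, against 3.72, 3.49 and 6.98 CPM in the control libraries, a rise of 3.29 ± 0.26 (edgeR adjusted p = 0.000139). In control replicates 1, 2 and 3 there were 45.0, 67.9 and 26.4 CPM of Ecel1, and the intervene libraries lay within that range.

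Matrix protease and coagulation genes were called higher in 9 of 17 members tested and lower in 1 (median log2 fold change 0.54), with 2 of the 9 above every saline library. Thbs1, a matrix glycoprotein released by platelets, rose by 2.09 ± 0.29 (edgeR adjusted p = 0.000862), with 2.77 to 4.63 CPM in the intervene libraries, 0.764 to 0.898 CPM in the control libraries and 1.70 to 2.89 CPM in control replicates 1 to 3. Adamts1, a secreted metalloprotease, rose by 1.10 ± 0.24 and lay above every saline library (edgeR adjusted p = 0.00908). Endothelial activation genes were called higher in 2 of 5 members tested and lower in none (median log2 fold change 0.65, or 1.20 without control replicate 6). Icam1, which binds leukocytes to endothelium, had 9.59, 6.88 and 7.39 CPM, against 1.73, 1.74 and 4.62 CPM in the control libraries (log2 fold change 1.60 ± 0.37, edgeR adjusted p = 0.0127), a call lost without control replicate 5 (edgeR adjusted p = 0.0507). Inflammasome genes were called higher in 1 of 9 members tested and lower in none (median log2 fold change 0.40, or 0.17 to 0.23 without intervene replicate 6, control replicate 4 or control replicate 5).

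**Figure D3:**
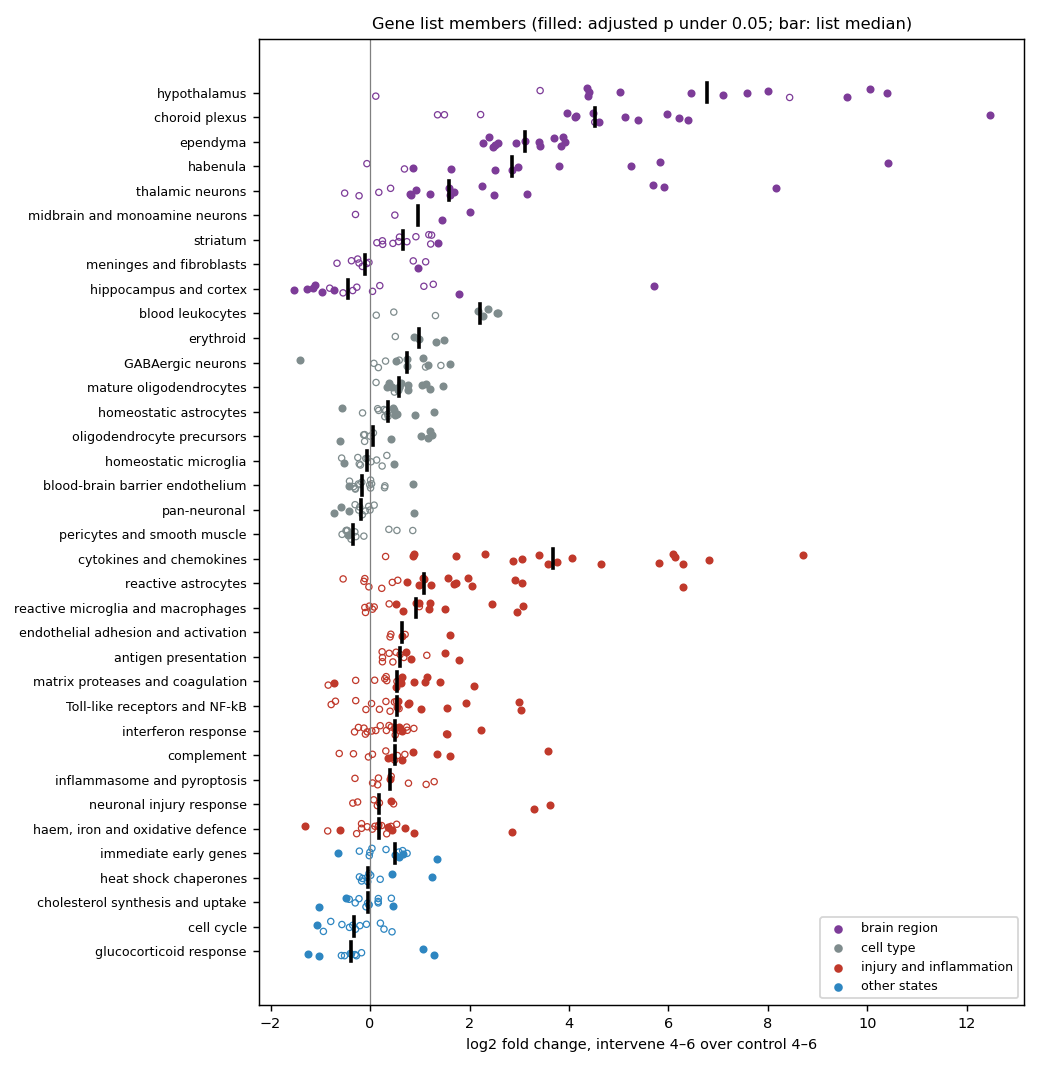
Log2 fold changes (intervene over control, replicates 4 to 6) of the tested members of 36 gene lists, filled where called and open where not, with a bar at each list's median. The hypothalamic list has the highest median, 6.77, and the cytokine and chemokine list, at 3.67, the highest among the injury lists. Members that passed the filter only through the intervene libraries are included. Without them the hypothalamic median is 3.90, the choroid plexus one 4.13 and the cytokine one 1.74.

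Most thalamic, habenular, hypothalamic, choroid plexus and ependymal genes were called higher in the intervene libraries and, with 1 exception among those called, did not lie above every saline library. Of 17 thalamic neuron genes, 13 were called higher, 0 of them above every saline library (median log2 fold change 1.59). Of the 13, 3 passed the filter only through the intervene libraries. Of the other 14 members, 10 were called higher, with a median log2 fold change of 1.07. The summed level of all 17 was 391 to 516 CPM in the intervene libraries, 190 to 209 CPM in control replicates 4 to 6 and 635 to 681 CPM in control replicates 1 to 3. The intervene libraries therefore lay between the 2 sets of saline libraries. The log2 fold change was 3.15 ± 0.18 for Tcf7l2, 8.16 ± 0.49 for Shox2 and 5.68 ± 0.39 for Lhx9, a LIM homeobox gene. Slc17a6, the vesicular glutamate transporter of thalamic neurons, had 116, 44.0 and 52.7 CPM in the intervene libraries, against 16.04, 12.7 and 9.37 CPM in control replicates 4 to 6 and 117, 180 and 135 CPM in control replicates 1 to 3, and was no longer called without control replicate 5, where its log2 fold change was 2.495, or with no filter on low counts. Ntng1, a netrin-related adhesion protein, had 33.1, 30.3 and 29.8 CPM, against 9.53, 12.2 and 9.57 CPM and, in control replicates 1 to 3, 55.2, 47.9 and 55.2 CPM. Rora, a nuclear receptor that other regions express as well, had 44.4, 30.7 and 37.1 CPM, against 48.9, 44.2 and 39.5 CPM in control replicates 4 to 6, and was not called.

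Habenular genes were called higher in 9 of 11 members, with a median log2 fold change of 2.86 and 0 of the 9 above every saline library. Of the 9, 3 passed the filter only through the intervene libraries. Of the other 8 members, 6 were called higher, with a median log2 fold change of 2.07. Tac2, the neurokinin B precursor of medial habenula, had 45.3, 65.0 and 45.96 CPM in the intervene libraries, against 8.60, 8.62 and 10.6 CPM in the control libraries and 54.2, 32.8 and 38.4 CPM in control replicates 1, 2 and 3. Pou4f1, a POU homeobox gene of habenular neurons, had 5.57, 13.02 and 1.98 CPM, against 0.192, 0.104 and 0.0664 CPM in the control libraries. Intervene replicate 6 was the lowest of its group, and control replicates 1, 2 and 3 had 9.66, 5.597 and 13.7 CPM. Irx2, an Iroquois homeobox gene, had 5.44, 7.52 and 1.71 CPM and no count in the control libraries, at least 194-fold higher, while control replicates 1, 2 and 3 had 10.3, 17.0 and 15.2 CPM.

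Hypothalamic genes had the highest median of the 36 lists, 6.77, with 11 of 14 members tested called higher (of 20 listed) and 0 of the 11 above every saline library. Without intervene replicate 4 the median was 4.84. As many as 9 of the 11 passed the filter only through the intervene libraries. Of the 4 members that did not depend on them, 2 were called higher, with a median of 3.90. That was below the median of such choroid plexus members, 4.13, so the rank rests on the filter. Oxt, the oxytocin precursor, had 439, 36.1 and 178 CPM in the intervene libraries, against 0.0321, 0.139 and 0.332 CPM in the control libraries, while control replicates 1, 2 and 3 had 40.2, 339 and 69.2 CPM. The intervene libraries and control replicates 1 to 3 each spread widely and overlapped, and the log2 fold change within replicates 4 to 6 was 10.39 ± 1.61. Avp, the vasopressin precursor, had 471, 15.8 and 79.6 CPM, against 0.192, 0.243 and 0.299 CPM in the control libraries and 66.3, 308 and 102 CPM in control replicates 1, 2 and 3. Both neuropeptides were highest in intervene replicate 4 and lowest in intervene replicate 5. Oxt was no longer called without any 1 of the 3 control libraries, where its log2 fold change was 10.02 to 11.03, and Avp was no longer called without any 1 of them or intervene replicate 6, where it was 9.48 to 9.95. With limma-voom on all 6 libraries neither was called (log2 fold changes 10.04 and 8.39), and with no filter on low counts Avp was not.

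Ucn3, the urocortin of the hypothalamus and medial amygdala, had 5.88, 2.75 and 2.80 CPM in the intervene libraries and no count in control replicates 4, 5 and 6, so it was at least 151-fold higher. Control replicates 1, 2 and 3 had 2.15, 3.25 and 0.719 CPM, and the intervene libraries overlapped them. Gal, the galanin precursor, had 25.4, 7.32 and 18.3 CPM, against 0.0641, 0.347 and 0.0664 CPM in the control libraries and 11.5, 31.9 and 14.6 CPM in control replicates 1, 2 and 3. Among transcription factors, Nkx2-1 of the ventral hypothalamus had 12.8, 5.91 and 4.99 CPM, against 0.257, 0.174 and 0.830 CPM. Sim1, needed for the paraventricular nucleus, had 6.01, 1.01 and 1.37 CPM, against 0.0641, 0 and 0 CPM, a ratio of 166 with a 95% counting interval of 45.5 to 1380. Uncx, a homeobox gene outside the list, had 4.93, 2.18 and 2.91 CPM and no count in the control libraries, at least 132-fold higher, and control replicates 1, 2 and 3 had 2.97, 8.19 and 2.88 CPM. Pmch, the melanin-concentrating hormone precursor of lateral hypothalamus, had 162 CPM in intervene replicate 4 but 0.403 and 0.376 CPM in intervene replicates 5 and 6, against 0.0962, 0.0521 and 0.399 CPM in the control libraries. It was not called in the 6 libraries alone and was called where all 18 libraries shared the estimate of spread (log2 fold change 8.41). Crh, which cortex and thalamus express as well, had 9.08, 5.002 and 7.59 CPM, against 7.73, 6.05 and 6.54 CPM, and was not called.

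**Figure D4:**
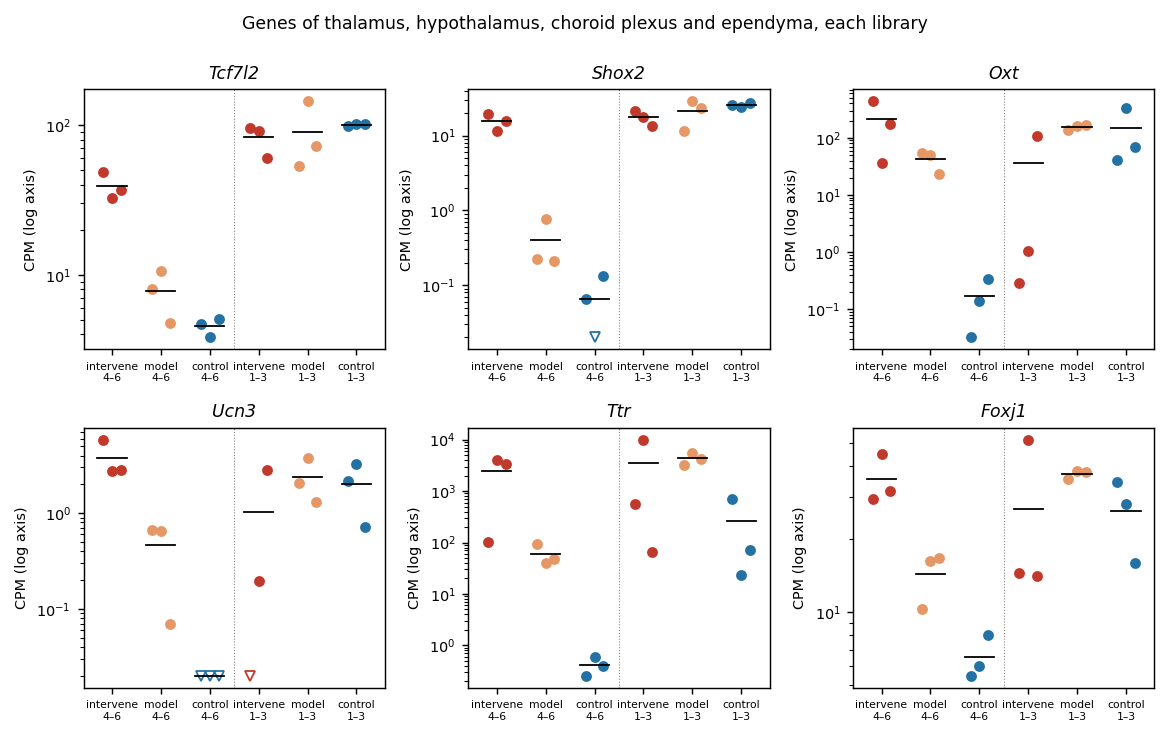
CPM on a log axis of 6 region genes in each library (dots) with group means (lines), for intervene, model and control replicates 4 to 6 on the left of the dotted line and replicates 1 to 3 on its right. Open triangles are libraries with no count. Control replicates 4 to 6 have the lowest mean of the 6 groups in every panel, as with Ttr at 0.257 to 0.591 CPM against 101 to 3949 CPM in the intervene 4 to 6 libraries.

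Choroid plexus genes were called higher in 11 of 15 members tested (of 17 listed), with a median log2 fold change of 4.52 and 0 of the 11 above every saline library. As many as 7 of the 11 passed the filter only through the intervene libraries. Of the 7 members that did not depend on them, 4 were called higher, with a median log2 fold change of 4.13. Ttr, the thyroxine carrier that choroid plexus secretes, had 101, 3949 and 3407 CPM in the intervene libraries, against 0.257, 0.591 and 0.399 CPM in the control libraries. The other saline libraries, control replicates 1, 2 and 3, had 688, 23.4 and 70.2 CPM, and the log2 fold change within replicates 4 to 6 was 12.46 ± 2.13. Ttr was no longer called without any 1 of the libraries numbered 4 to 6 in the contrast, other than intervene replicate 4, and its log2 fold change was then 11.94 to 12.89, nor was it called with limma-voom, at 11.35. Intervene replicate 4, the highest in Oxt and Avp, was the lowest in Ttr. Cldn2, the pore-forming claudin of choroid plexus epithelium, had 0.946, 6.51 and 4.58 CPM, against 0.0641, 0.0348 and 0.0664 CPM in the control libraries. Prlr, the prolactin receptor, had 7.84, 12.8 and 8.89 CPM, against 0.513, 0.382 and 0.332 CPM, and control replicates 1, 2 and 3 had 11.7, 13.5 and 7.05 CPM. Clic6, a chloride channel protein, had 16.5, 41.4 and 28.9 CPM, against 1.03, 1.25 and 2.86 CPM. Enpp2, autotaxin, which oligodendrocytes also express, had 211, 770.3 and 696 CPM, against 236, 213 and 214 CPM, and it was not called. Intervene replicate 4 was the lowest of all 6 libraries, and without it Enpp2 was called with a log2 fold change of 1.75, as it was with DESeq2 on all 6 (1.35).

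All 13 ependymal genes were called higher, with a median log2 fold change of 3.11. Of these, 7 passed the filter only through the intervene libraries, and the other 6 had a median log2 fold change of 2.49. Foxj1, the master gene of motile cilia, had 29.3, 45.2 and 31.6 CPM in the intervene libraries, against 5.45, 5.99 and 8.04 CPM in the control libraries and 34.5, 27.99 and 16 CPM in control replicates 1, 2 and 3. Cfap126, a ciliary protein, was the 1 region gene called higher that lay above every saline library. It had 10.6, 20.7 and 16.01 CPM, against 0.385, 1.56 and 1.26 CPM, and control replicates 1, 2 and 3 had 9.42, 9.15 and 3.16 CPM.

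Hippocampal and cortical genes went both ways, with 2 of 16 called higher and 6 lower (median log2 fold change -0.45), 0 of them outside the range of all 6 saline libraries. Where all 18 libraries shared the estimate of spread, 2 were higher and 2 lower, and Slc17a7 and Tbr1 were not called. The lower ones included genes of cortical pyramidal neurons. Slc17a7, their vesicular glutamate transporter, had 512, 727 and 1004 CPM in the intervene libraries, against 1585, 1673 and 1626 CPM in the control libraries, while control replicates 1, 2 and 3 had 123, 53.4 and 557 CPM. Tbr1, a transcription factor of deep cortical layers, had 58.9, 60.2 and 96.8 CPM, against 178, 173 and 135 CPM and, in control replicates 1 to 3, 15.8, 4.93 and 25.9 CPM. Mpped1 had 75.2, 71.9 and 102 CPM, against 199, 224 and 185 CPM in the control libraries and 38.4, 26.3 and 64.9 CPM in control replicates 1 to 3. For Tbr1 and Mpped1 the intervene libraries lay between the 2 sets of saline libraries, and for Slc17a7 they reached into the upper end of control replicates 1 to 3. The higher ones were genes of the dentate gyrus. C1ql2, a synaptic protein of dentate granule cells, had 21.6, 31.2 and 30.5 CPM, against 0.257, 0.556 and 0.797 CPM and, in control replicates 1 to 3, 17.9, 21.1 and 63.0 CPM. Prox1, a homeobox gene of granule cells, had 24.0, 30.2 and 25.9 CPM, against 7.76, 7.80 and 8.07 CPM. Striatal genes were called higher in 1 of 12 members (median log2 fold change 0.67), midbrain and monoamine genes in 2 of 4 tested of 13 listed (median 0.97, or 1.64 without intervene replicate 5 and 1.49 without control replicate 6) and meningeal genes in 1 of 10 (median -0.11), with none lower in these lists.

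Markers of other cell types moved beside the injury and region genes. Of 17 blood leukocyte markers, 8 were tested and 5 were called higher, all 5 above every saline library (median log2 fold change 2.22). Of these 5, 4 passed the filter only through the intervene libraries, and 2 of 10 tested were called where all 18 libraries shared the estimate of spread. Their summed level was 14.2 to 17.5 CPM in the intervene libraries, 6.51 to 9.19 CPM in the control libraries and 5.61 to 6.88 CPM in control replicates 1 to 3. S100a9, the calgranulin of neutrophils and monocytes, had 4.86, 3.69 and 2.53 CPM, against 0.321, 1.25 and 0.465 CPM in the control libraries (log2 fold change 2.38 ± 0.46, edgeR adjusted p = 0.00483), and Retnlg, Plac8, Ly6c2 and Ccr2 were the other 4. The lymphocyte markers Cd3e, Cd3d, Cd8a, Cd79a and Ms4a1 were too low to be tested. The part of leukocytes in the rise of cytokine and microglial genes was not tested. Erythroid markers were called higher in 4 of 5 members (median log2 fold change 0.99), with a summed level of 269 to 411 CPM in the intervene libraries and 116 to 159 CPM in the control libraries. Control replicates 1 to 3 reached 232 to 327 CPM, and 0 of the 4 lay above every saline library. Hbb-bs, a beta globin, had 262, 269 and 183 CPM, against 72.3, 94.0 and 92.9 CPM in the control libraries (log2 fold change 1.48 ± 0.16, edgeR adjusted p = 0.000334).

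Oligodendrocyte genes were called higher in 13 of 15 members and lower in none (median log2 fold change 0.58), and 0 of the 13 lay above every saline library. Their summed level was 14730 to 16470 CPM in the intervene libraries, 7476 to 8250 CPM in the control libraries and 16220 to 19610 CPM in control replicates 1 to 3. Mbp, myelin basic protein, had 8218, 8785 and 8517 CPM, against 3803, 3370 and 4038 CPM in the control libraries and 9374, 7392 and 9166 CPM in control replicates 1, 2 and 3 (log2 fold change 1.21 ± 0.13, edgeR adjusted p = 0.000269). Mobp, another myelin protein, rose by 1.13 ± 0.13, and Gjb1, a connexin of oligodendrocytes, by 1.46 ± 0.11, with edgeR adjusted p-values of 0.000327 and 6.03e-05. Mog, a myelin surface protein, had 15.2, 17.0 and 15.2 CPM, against 16.1, 15.5 and 12.5 CPM, and was not called (edgeR adjusted p = 0.551). Oligodendrocyte precursor genes were higher in 5 of 11 members and lower in 1 (median log2 fold change 0.07), and Bcas1, of newly forming oligodendrocytes, rose by 1.24 ± 0.11 (edgeR adjusted p = 0.000121). Pan-neuronal genes were higher in 1 of 12 members and lower in 3 (median -0.18), among them Syt1, the calcium sensor of synaptic vesicles, which fell by 0.72 on the log2 scale (SE 0.11, edgeR adjusted p = 0.00151). GABAergic genes were higher in 6 of 13 members and lower in 1 (median 0.74), with 3 higher where all 18 libraries shared the estimate of spread, and Gad2, a GABA-synthesising enzyme, rose by 1.07 ± 0.17 (edgeR adjusted p = 0.00175). Homeostatic astrocyte genes were higher in 6 of 15 members and lower in 1 (median 0.36), with Aqp4, the water channel of astrocyte endfeet, up by 0.90 ± 0.14 (edgeR adjusted p = 0.00162). Blood-brain barrier genes were higher in 1 of 15 members and lower in 1 (median -0.17), with the tight junction gene Cldn5 at -0.33 ± 0.30 (edgeR adjusted p = 0.462), and pericyte and smooth muscle genes were lower in 1 of 12 and higher in none (median -0.34).

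The same contrast in replicates 1 to 3, which share no library with it, called no gene. Of 17904 genes tested there, 0 (0%) passed edgeR's test, 1238 had an unadjusted p under 0.05, and DESeq2 called 34 and limma-voom 0. Hmox1 had a log2 fold change of -0.08 ± 0.20 in replicates 1 to 3 and Ccl12 one of 0.31 ± 0.60. Whether the contrast differed between the sets was tested directly, as the difference of the 2 differences over 12 libraries. Of 18943 genes tested, 1514 had a larger difference in replicates 4 to 6 (7.99%) and 1275 a smaller one (6.73%). The counts were 841 and 672 without control replicate 4, 791 and 596 without control replicate 5, 797 smaller without intervene replicate 5 and 753 smaller without intervene replicate 1. Hmox1 differed by 2.93 ± 0.27 on the log2 scale between the sets (edgeR adjusted p = 0.000340), Ccl12 by 4.28 ± 0.67 (edgeR adjusted p = 0.00294), Ptx3 by 5.80 ± 0.90 (edgeR adjusted p = 0.00254) and Tlr2 by 2.65 ± 0.36 (edgeR adjusted p = 0.00200). For Lcn2, Msr1 and Clec7a the difference between the sets did not pass, at -0.06 ± 0.92, 1.16 ± 0.94 and 0.96 ± 0.64 (edgeR adjusted p = 0.976, 0.439 and 0.335). In replicates 1 to 3 their log2 fold changes were 1.77 ± 0.85, 1.28 ± 0.87 and 1.98 ± 0.44, none of them called. These were not the only ones. Among other injury and leukocyte genes named above, the difference did not pass for Ccl2, Ccl4, Cxcl1, Cxcl2, Il1b, Lgals3, Relb and Serpina3n. Nor did it for C4b, Cd44, Osmr, Icam1, Adamts1, Irf9, Cd74, H2-Ab1 and S100a9 (edgeR adjusted p of 0.0503 or more for each gene). For these genes a rise particular to replicates 4 to 6 is not shown.

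The model libraries, which received Coll IV alone, hold the same 2 sets of numbers and share no library with the contrast. The split into sets was itself chosen because region genes differed across it. The overlaps and the counts of region genes below are therefore a description that is read as no test. In model replicates 4 to 6 against model replicates 1 to 3, 1419 of 18068 genes were called higher (7.85%) and 1853 lower (10.3%). Of the genes higher in the intervene libraries and tested in both, 945 of 2551 (37.0%) were lower in model replicates 4 to 6, against 1745 of all 17387 genes tested in both (10.04%), and 23 were higher. The 945 were 54.2% of those 1745. Of the genes lower in the intervene libraries, 565 of 1930 (29.3%) were higher in model replicates 4 to 6, against 1414 of 17387 (8.13%), and 9 were lower. The 565 were 40.0% of those 1414. Among the lists, all 15 choroid plexus members and all 13 ependymal members tested were lower in model replicates 4 to 6, as were 10 of 11 habenular, 11 of 17 thalamic, 8 of 10 meningeal and 7 of 14 hypothalamic members. Hippocampal and cortical genes had 4 lower and 2 higher of 16, and striatal genes 0 lower and 8 higher of 12. Injury lists held lower members as well, with 9 of 20 reactive astrocyte, 8 of 13 antigen presentation and 8 of 17 matrix protease genes, and so did oligodendrocyte genes with 13 of 15. In the cytokine list 3 were lower and 1 was higher of the 12 tested in both.

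Among single genes, Ttr averaged 60.4 CPM in model replicates 4 to 6 and 4314 CPM in model replicates 1 to 3, and Shox2 averaged 0.401 and 21.4 CPM. Hmox1 averaged 16.2 CPM in model replicates 4 to 6 and 6.21 CPM in model replicates 1 to 3, and Ccl12 averaged 3.53 and 0.618 CPM. Neither Hmox1 (edgeR adjusted p = 0.0730) nor Ccl12 (edgeR adjusted p = 0.104) was called between the model sets, although both had a positive log2 fold change.

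**Figure D5:**
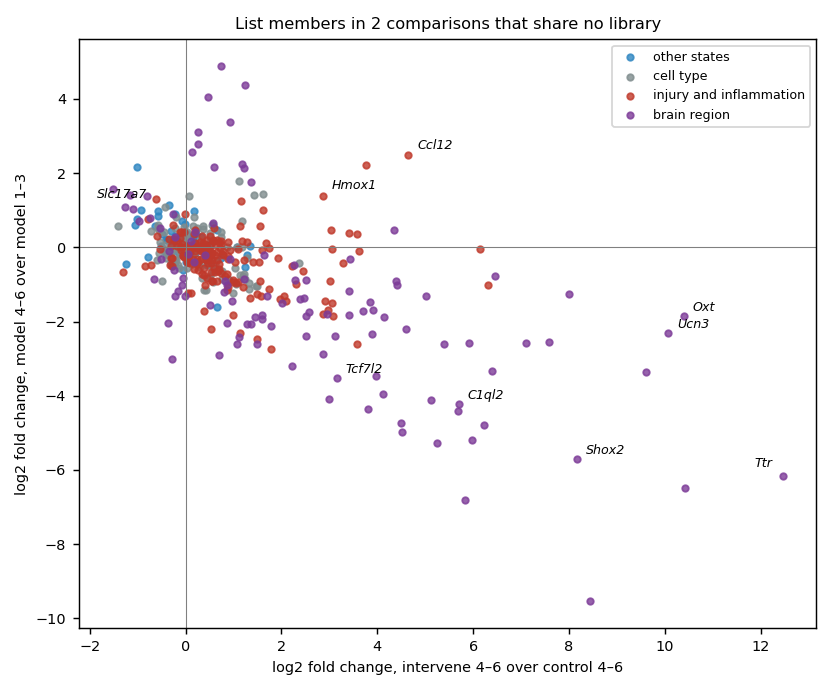
Log2 fold change of intervene over control in replicates 4 to 6 (x axis) and of model replicates 4 to 6 over model replicates 1 to 3 (y axis) for 464 list members tested in both, coloured by the kind of list. Region genes such as Ttr and Shox2 lie at the lower right, high in the intervene libraries and low in model replicates 4 to 6. So do injury genes such as Gfap, Serpina3n, C3 and Lgals3. Hmox1 and Ccl12 lie above 0 on both axes, but neither was called between the model sets. The sets were chosen because region genes differed across them, so the place of region genes is read as no test.

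Genes that fell had smaller changes, and most were not below every saline library. Of the 1953 lower genes, 229 (11.7%) lay below all 6 control libraries, against 548 of all 17734 genes tested (3.09%). Of the 229, 24 had at least a 2-fold change, and 16 of these carry predicted, clone, pseudogene or transfer RNA names. Dmrt2, a DM-domain transcription factor, had 0.338, 0.0671 and 0.137 CPM in the intervene libraries, against 1.80, 1.98 and 1.89 CPM in the control libraries. Control replicates 1, 2 and 3 had 0.0819, 0 and 0.0719 CPM, close to the intervene libraries. Rspo2, a Wnt pathway agonist, had 3.11, 2.42 and 3.69 CPM, against 13.2, 19.7 and 12.8 CPM in the control libraries and 1.41, 1.87 and 4.46 CPM in control replicates 1, 2 and 3. Prss12, the neuronal protease neurotrypsin, had 9.59, 4.87 and 7.80 CPM, against 28.7, 33.1 and 36.3 CPM in the control libraries and 5.84, 5.45 and 11.4 CPM in control replicates 1, 2 and 3. All 3 fell in the test (edgeR adjusted p = 0.000864, 0.000148 and 0.000269) and overlapped the saline libraries of the other set. Dmrt2 was below the filter's 0.322 CPM in intervene replicates 5 and 6. It could therefore be tested only because it was high in the control libraries. How many other lower genes passed the filter only in that way was not counted. Flrt2, an adhesion protein of neurons, and Tmem132a had log2 fold changes of -1.23 ± 0.11 and -1.30 ± 0.12 and lay between the 2 sets of saline libraries, with 28.3 to 31.6 and 83.1 to 104 CPM in the intervene libraries, 64.9 to 76.6 and 214 to 256 CPM in the control libraries, and 22.1 to 27.5 and 60.7 to 77.2 CPM in control replicates 1 to 3.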

How the data were processed

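PolyA RNA of mouse tissue labelled thalamus was sequenced in 18 libraries. Counts per gene were made with HISAT2 and featureCounts on build GRCm39, per the submitters' processing notes. Their versions, the annotation and the use of strand are not stated in what was used here, so overlapping and antisense genes cannot be told apart. The authors deposited raw counts per gene symbol and FPKM values. The deposited FPKM equalled counts scaled by 1 length per gene and by the column total, tested on 18117 genes (relative tolerance 1e-06), so they carry no further normalization.

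From the counts, edgeR 4.0.16 (R 4.3.3) with TMM, filterByExpr by group and the robust quasi-likelihood F test compared intervene with control replicates 4 to 6, using only those 6 libraries, with Benjamini-Hochberg adjustment over all genes tested and a threshold of 0.05. The same test was applied to replicates 1 to 3, to the difference between the sets (12 libraries) and to the model libraries. DESeq2 1.42.0, limma 3.58.1, other scalings, filters, covariates and leaving out each library were alternatives, and 3 libraries a group limit the precision. A gene at 0 in the control libraries was set against a floor of 3 counts over the group (0.0253 CPM), and one with 1 to 3 counts got an exact 95% interval, both for counting error only.

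The set of libraries, the genes and the 36 lists were chosen with earlier results of these data known, so no list was tested and p-values do not account for the choice. Genes were named by a rule: Nat10, Ttr, Oxt and Ucn3, the 12 largest called changes in each direction at a mean of at least 1 CPM, the 4 lowest p-values in each list, and 6 genes in each direction for the difference between the sets. Socs3, Gpr84 and Hcar2 and members named for not passing the test were chosen after their values were seen. Called members named beyond the 4 lowest p-values of their list are outside the rule as well and were picked with results known. Among them are Cxcl1, Cxcl10, Ccl3, Ccl4, Il1a, Il1b, Tnf, Csf1, Lcn2, Cd44, Osmr, Relb and Nfkb2. No 2 replicates agreed within counting noise (smallest chi-square per degree of freedom 11.4). Some genes that the rule or the lists hold are not reported here. The steps were tested on simulated counts.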

Additional observations from a re-analysis of the deposited data

Results flagged for a closer look

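The values here are differences between the sets: the intervene minus control log2 difference in replicates 4 to 6 less that in replicates 1 to 3, over 12 libraries with edgeR. In 1514 genes it was positive and in 1275 negative at an adjusted p under 0.05, and each gene below is among them. Named genes for which it did not pass, such as Ccl2, Cxcl1, Il1b and Lgals3, are left out below. For region genes the values and their passing are a description and no test, since such genes set the libraries apart. In other genes too, the difference can hold a gap between the saline sets. Mean control levels in replicates 4 to 6 and 1 to 3 were 4.73 and 46.4 CPM for Ecel1 and 3737 and 8644 CPM for Mbp. For Hmox1 they were 7.82 and 6.74 CPM. How much of each difference such gaps make up was not tested.

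Among hypothalamic genes the difference was 12.4 for Oxt, 11.3 for Ucn3, 7.82 for Sim1, 7.80 for Gal and 5.71 for Nkx2-1, and it was 10.2 for the homeobox gene Uncx. Habenular genes had 10.1 for Irx2, 5.64 for Pou4f1 and 3.39 for Tac2. Thalamic genes had 8.71 for Shox2, 5.40 for Lhx9, 3.43 for Tcf7l2, 2.51 for Slc17a6 and 2.04 for Ntng1. The choroid plexus gene Prlr had 4.43, the ependymal genes Cfap126 and Foxj1 had 3.68 and 2.43, and C1ql2 and Mpped1 of hippocampus and cortex had 5.13 and -1.75.

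Cytokine and chemokine genes had 5.89 for Ccl7, 4.98 for Il1rn, 4.94 for Cxcl10, 4.28 for Ccl12, 4.04 for Tnf, 3.39 for Ccl3, 2.80 for Il1a and 0.764 for Csf1. Toll-like receptor and NF-kB genes had 2.88 for Bcl3, 2.65 for Tlr2, 1.18 for Cd14, 1.01 for Nfkb2 and 0.563 for Rela. Astrocyte genes had 5.80 for Ptx3, 2.80 for Cd109 and 1.37 for Gfap. The complement genes C3 and C5ar1 had 1.88 and 1.86, and the interferon gene Gbp2 had 1.95. Neuronal injury genes had 4.26 for Ecel1 and 3.49 for Atf3. Haem and iron genes had 2.93 for Hmox1, 0.923 for Fth1 and -0.864 for Tfrc, and the matrix gene Thbs1 had 1.62. Outside the lists, Hcar2 had 3.27, Gpr84 had 2.71 and Socs3 had 1.98.

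Myelin genes had 1.30 for Gjb1, 1.18 for Bcas1, 1.14 for Mobp and 1.12 for Mbp. Hbb-bs had 1.76, Gad2 had 1.72, Syt1 had -0.84, Mt1 had 1.62 and Fkbp5 had -1.14. Genes of low p for this difference beside those above were Kcnip1, a potassium channel partner, with 1.40, Flrt2 with -1.57, Syt16 with -1.63, D430041D05Rik with -1.44, Pamr1 with -2.05, Tmem132a with -1.79 and Mat2b, a subunit of methionine adenosyltransferase, with -1.28. Rspo2 had -3.13, Prss12 had -2.90 and Dmrt2 had -5.47.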

How the results depend on the processing

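Leaving out each of the 6 libraries in turn gave 1473 to 2876 higher and 982 to 2150 lower genes, 142 to 229 higher and 10 to 27 lower list members, and 258 to 490 higher genes above all 6 saline libraries. For the difference between the sets, leaving out each of 12 libraries gave 791 to 1576 positive and 596 to 1259 negative genes. Control replicates 4 and 5 gave the lowest counts, 15 and 10 lower list members and 275 and 258 genes above all saline libraries without them, and the cause was not tested. Requiring at least a 2-fold change left 1133 higher and 420 lower genes, 10 lower list members and 171 genes above all saline libraries. With limma on log2(FPKM + 1) 1710 genes were higher, and with log2(FPKM + 0.1) 1834 were higher and 2221 lower (45.2% of calls higher). Scaling to library totals moved the median log2 fold change of all genes to -0.0783. DESeq2 called 2801 and 2247 genes, limma-voom 2580 and 2010, and 18 libraries with 6 group means 2726 and 2052. In replicates 1 to 3, DESeq2 called 34 genes and edgeR with no filter on low counts 1.

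With thalamic and choroid plexus scores as covariates over 18 libraries, 0 genes were higher and 0 lower, so 0 list members and 0 genes above all saline libraries were called, while 837 genes had an unadjusted p under 0.05. The median SE was 0.793 there, 0.198 with the 6 means alone and 0.163 in the fit of 6 libraries. Log2 fold changes changed sign in that fit for 54 of the 221 called list members and, among named genes that were called, for Tcf7l2 (-0.61), Tac2 (-0.0086), Clic6 (-2.38), Foxj1 (-0.30), Prox1 (-0.26), Gad2 (-0.38), Ccl3 (-1.01), Cxcl2 (-1.51), Tbr1 (1.57), Mpped1 (0.89), Syt1 (0.042), Syt16 (0.040) and Mat2b (0.063). Named genes that were not called changed sign too, as Enpp2 (-0.61), Nat10 (0.58), Rora (0.90) and Tlr4 (1.33).

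The correlations of same-numbered deviations in replicates 4, 5 and 6 were -0.02, 0.09 and 0.09. Intervene replicates 5 and 6 matched the control library of their own number best, and replicate 4 did not. With 3 libraries a group such correlations cannot settle whether replicate numbers pair the libraries. With the replicate block 2553 genes were higher and 1966 lower, 0 were called in replicates 1 to 3, Pmch was called (log2 fold change 7.48), and the difference between the sets had 775 positive and 518 negative genes. Of 96 named genes called, all 96 kept their call and direction under the block, DESeq2 and both other scalings tried with edgeR, and 90 without control replicate 5.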

Other observations

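Lists of other states moved little. Immediate early genes were called higher in 3 of 14 members and lower in 1 (median log2 fold change 0.51), with 1 higher where all 18 libraries shared the estimate of spread, heat shock chaperones higher in 2 of 10 (median -0.04, or 0.05 without intervene replicate 6), cholesterol genes higher in 1 and lower in 2 of 14 (median -0.04), and cell cycle genes lower in 1 of 12 tested (median -0.32, or -0.04 without control replicate 6). Glucocorticoid response genes were higher in 2 and lower in 2 of 11 (median -0.38). Fkbp5, a chaperone of the glucocorticoid receptor, had 39.0, 52.3 and 33.4 CPM in the intervene libraries, against 83.2, 92.6 and 81.3 CPM in the control libraries, and fell by 1.02 on the log2 scale (edgeR adjusted p = 0.00123). Control replicates 1, 2 and 3 had 39.3, 23.6 and 42.4 CPM of it. Mt1, a metallothionein, had 693, 1297 and 1245 CPM, against 418, 416 and 516 CPM, a rise of 1.28 ± 0.22 (edgeR adjusted p = 0.00342), and control replicates 1, 2 and 3 had 778, 691 and 870 CPM.

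Among genes at least 4-fold higher and above every saline library, 28 were in no list. Saa3, an acute-phase serum amyloid, had 2.09, 0.806 and 0.958 CPM in the intervene libraries and no count in any of the 6 control libraries, at least 50.9-fold higher than control replicates 4 to 6. Socs3, a feedback inhibitor of cytokine signalling, had 13.2, 14.6 and 9.88 CPM, against 2.31, 2.75 and 2.46 CPM (log2 fold change 2.34 ± 0.19, edgeR adjusted p = 8.77e-05). Gpr84, a receptor for medium-chain fatty acids on myeloid cells, rose by 3.40 ± 0.44, and Hcar2, a receptor for hydroxybutyrate and niacin, by 4.56 ± 0.52, with edgeR adjusted p-values of 0.000851 and 0.000335. The last 3 were picked after their values were seen. Saa3 and Hcar2 were below the filter's 0.322 CPM in each of control replicates 4 to 6, and Gpr84 was below it in control replicate 4. These genes, unlike Socs3, passed the filter only through the intervene libraries and could be tested only because they were high there.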
